A study of Mus musculus with 6 samples.

Results

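Genes for the proteins of the mitochondrial ribosome were compared between RNA bound to tagged ribosomes of S100a10-expressing cells and whole cortex RNA of the same mouse line. Members were all probe sets whose only gene symbol begins with Mrpl or Mrps followed by a digit. There were 156 such probe sets for 76 genes, of 45101 probe sets and 18193 gene symbols on the array. By symbol, 47 genes (104 probe sets) belong to the large subunit and 29 genes (52 probe sets) to the small subunit. In translating ribosome affinity purification (TRAP), tagged ribosomes are pulled down and the mRNA on them is measured. The TRAP group was made of 3 samples of such RNA from cortex of the BAC transgenic line ES691, in which S100a10 sequence drives the tag. The comparison group held 3 samples of unbound whole cortex RNA from the same line, called input in the titles. Both groups share the transgene and a C57BL/6 background backcrossed from FVB, and neither received a treatment. Ages and numbers of animals are not given in the sources used here, so the spread behind each p-value is that between these samples and may be technical in part.

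Mitochondria carry their own ribosome, which translates the few mRNAs encoded by mitochondrial DNA, all for subunits of the respiratory chain and ATP synthase. Its rRNAs are mitochondrial, but every one of its proteins is encoded in the nucleus, translated on cytosolic ribosomes and imported. The mRNAs measured here are therefore ones that a tagged cytosolic ribosome can carry. Some of the proteins have bacterial relatives and others exist only in mitochondrial ribosomes.

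The set of promoters used here (build GRCm38.p6) held 67 of the 76 genes, in 73 entries of 300 bases, from 250 before to 50 after the start. The genes without an entry in that set are Mrpl13, Mrpl15, Mrpl19, Mrpl38, Mrpl4, Mrpl54, Mrps28, Mrps34 and Mrps35. The letters of 3 motifs of factors known for nuclear genes of mitochondrial proteins were searched for on both strands. They were CCGGAAG, the core of sites for ETS factors such as GABPA, AAGATGGC, a site of YY1, and GCATGCGC, part of the NRF1 site. At least 1 of the 3 was in 50.7% of member promoters (37 of 73), against 16.7% of 21263 promoters of protein-coding genes and 13.3% of all 32851 promoters. The ETS motif was in 34.2% of member promoters against 11.6% of protein-coding promoters, the YY1 motif in 16.4% against 3.05%, and the NRF1 motif in 11.0% against 3.52%. The shares are a description of these letters in these windows. The 150 bases before the start are shown for 4 genes that rose in TRAP RNA and hold a motif there, and for 2 that fell and hold none there. Capitals mark the motif matches.
Mrpl36: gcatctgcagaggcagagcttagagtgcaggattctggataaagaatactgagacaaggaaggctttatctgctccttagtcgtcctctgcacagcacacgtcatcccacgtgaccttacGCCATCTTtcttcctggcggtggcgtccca
Mrpl43: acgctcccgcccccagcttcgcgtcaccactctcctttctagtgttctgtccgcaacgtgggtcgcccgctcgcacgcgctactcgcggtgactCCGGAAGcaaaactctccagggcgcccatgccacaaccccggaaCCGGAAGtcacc
Mrps18a: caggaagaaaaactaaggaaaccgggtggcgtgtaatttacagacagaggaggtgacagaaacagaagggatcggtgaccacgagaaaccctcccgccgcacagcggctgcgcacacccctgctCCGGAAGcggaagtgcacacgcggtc
Mrps22: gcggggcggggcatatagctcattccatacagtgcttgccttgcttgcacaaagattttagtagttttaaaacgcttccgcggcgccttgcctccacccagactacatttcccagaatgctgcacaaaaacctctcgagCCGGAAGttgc
Mrpl35: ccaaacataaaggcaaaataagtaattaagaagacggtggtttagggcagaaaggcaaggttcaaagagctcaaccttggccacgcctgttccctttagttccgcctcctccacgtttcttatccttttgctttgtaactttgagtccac
Mrps2: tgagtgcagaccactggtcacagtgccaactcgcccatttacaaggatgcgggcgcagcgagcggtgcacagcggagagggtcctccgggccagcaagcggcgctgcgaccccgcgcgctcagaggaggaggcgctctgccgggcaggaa
The windows are, in this order, at chr13:73330859-73331008, plus strand, chr19:45006443-45006592, minus strand, chr17:46110854-46111003, plus strand, chr9:98601680-98601829, minus strand, chr6:71823785-71823934, minus strand and chr2:28467916-28468065, plus strand. Mrpl36 holds the YY1 motif in reverse complement, Mrpl43 has 2 ETS motifs, and Mrps18a and Mrps22 have 1 each. Mrpl35 and Mrps18a each also have a YY1 motif after the start, outside the window shown. Of entries for genes called higher in TRAP RNA, 49.2% (29 of 59) held a motif, and of the entries for the remaining genes 57.1% (8 of 14). By motif these shares were 37.3% and 21.4% for ETS, 13.6% and 28.6% for YY1 and 10.2% and 14.3% for NRF1.

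Values are GCRMA intensities, a measure of brightness per probe set on a linear scale after background correction. A probe set's brightness also depends on its probes, so levels are compared between arrays and not between genes. The array medians over all probe sets were lower in TRAP than in unbound RNA, and the median log2 difference over 12070 genes tested was -0.21. S100a10, the driver gene, was 5.86-fold higher in TRAP RNA at 14128 ± 1095 (SD, n = 3) against 2430 ± 451 (SD, n = 3). Arrays of 1 group correlated at 0.997 or more over all probe sets, and no array stood apart. Cell-type markers moved with the groups. The summed intensity of 9 tested meningeal fibroblast markers was 29919 to 33761 on TRAP arrays and 1229 to 1492 on unbound arrays, and that of 4 endothelial markers 4149 to 4517 against 778 to 869. The endothelial sum is mostly Itm2a (4088 against 467 on average), and of the other markers Abcb1a was higher while Cldn5 (53.1 against 68.6) and Slco1c1 (42.0 against 253) were lower. Of 8 endothelial markers listed only these 4 had a group mean of at least 50. Abcb1a had it in TRAP RNA alone (142 against 37.6) and Slco1c1 in unbound RNA alone. Sums were lower in TRAP RNA for 7 oligodendrocyte markers (8317 to 13691 against 52035 to 57556), 8 microglial markers (520 to 755 against 1590 to 2075), 8 GABAergic interneuron markers (13012 to 16558 against 38582 to 39752) and 7 pyramidal neuron markers (12192 to 12773 against 15325 to 17304). Not every marker of these lists was lower. The pyramidal marker Neurod6 was called higher (6037 against 4392 on average), and Neurod2, Slc17a7, Sst and Tmem119 were not called. For 8 astrocyte markers the sums overlapped, at 14468 to 17822 and 15184 to 23462, but single markers went both ways (median log2 difference -1.25). Gjb6 (4691 against 846 on average) and Aldh1l1 were higher. Slc1a2, Mlc1, Aqp4 (96.6 against 1400) and Gfap (20.1 against 384) were lower, and Gja1 and Slc1a3 were not called. The part of these cell types in the results below was not tested. TRAP RNA was pulled down on tagged ribosomes of S100a10-expressing cells, while the comparison RNA was unbound RNA of whole cortex. The groups therefore differ at once in the cells sampled and in ribosome binding, and these differences cannot be told apart here. The number of cells of a type and the RNA per cell behind a marker's level cannot be told apart either.

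Most genes of the mitochondrial ribosome were higher in TRAP RNA. Each gene was represented by its brightest probe set, and all 76 genes had one with a group mean of at least 50, the level minimum. By limma over all 12070 genes (Benjamini-Hochberg adjusted p below 0.05), 39 of 47 large subunit genes were higher and 2 lower, and 22 of 29 small subunit genes were higher and 2 lower. Of all genes tested, 23.3% were called higher and 45.7% lower. The groups of 3 arrays did not overlap in 64 of the 76 genes with TRAP higher (40 large and 24 small) and in 4 with TRAP lower, against 25.9% and 49.6% of all genes. As deposited, 4 of the 76 genes were called with a 2-fold increase or more and 0 with a 2-fold decrease, beside 7.29% and 13.3% of all genes. These counts moved with scaling, to 42 and 0 after each array was centred on its median (14.3% and 6.34% of all genes) and to 14 and 0 after quantile normalisation (10.4% and 8.70%). The medians used for centring were 31.4 to 31.8 on TRAP arrays and 42.4 to 43.1 on unbound arrays. They lie under the level minimum of 50, so centring was set by dim probe sets and raised every gene in TRAP RNA by the same amount. The 39 large subunit calls varied between 37 and 39 when any 1 array was left out. The small subunit calls were fewer without TRAP replicate 1 (13 of 29) and without TRAP replicate 3 (14 of 29). Of all genes, 20.5% and 21.5% were called higher in these fits.

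The median log2 difference was 0.67 over the large subunit and 0.49 over the small subunit, beside -0.21 over all genes. The difference between the subunits was not tested. Over the 9018 genes whose mean level lay within the members' own range the median was also -0.21. The median intensity of the large subunit genes was 1993, 1807 and 1727 on the TRAP arrays and 1358, 1066 and 1138 on the unbound arrays. For the small subunit it was 1628, 1514 and 1598 on the TRAP arrays and 1334, 916 and 1162 on the unbound arrays. Unbound replicate 1 was the highest of its group for both subunits, and each TRAP array lay above it. Taking TRAP and unbound samples of the same replicate number as pairs, 45, 44 and 44 of 47 large subunit genes and 26, 27 and 26 of 29 small subunit genes were above 0 in pairs 1, 2 and 3.

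Scaling moved these values together with those of all genes. When each array was centred on the median of all its probe sets, 45 of 47 large and 27 of 29 small subunit genes were higher and 0 lower, with medians of 1.11 and 0.92, while the median of all genes moved to 0.23 and the calls higher and lower to 47.3% and 22.3% of genes. After quantile normalisation 43 large and 26 small subunit genes were higher, 2 large and 1 small were lower, the medians were 0.81 and 0.67, and the median of all genes was 0.0037, with 34.1% of genes called higher and 33.0% lower.

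**Figure D1:**
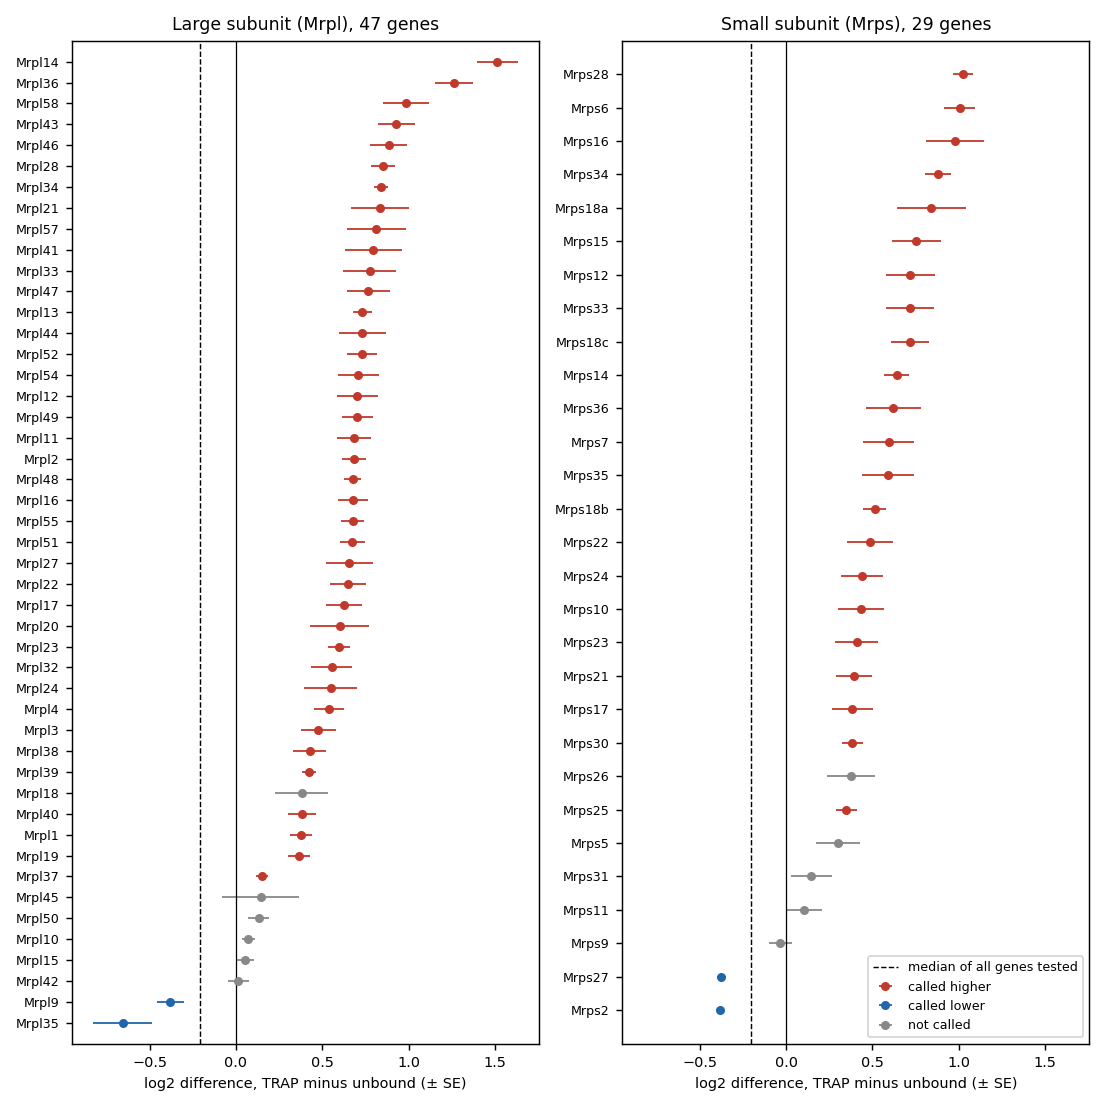
Log2 difference in intensity between TRAP and unbound RNA for the 47 large subunit genes (left) and the 29 small subunit genes (right), with the SE of the limma fit; colour gives the call at adjusted p below 0.05. All but 5 of the 76 points lie above 0, and the dashed line is the median of all genes tested, -0.21.

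In the large subunit the highest difference was that of Mrpl14, a protein with a bacterial relative. Its intensity was 314, 252 and 316 on the TRAP arrays and 112, 102 and 93.6 on the unbound arrays. The groups were far apart, a 2.86-fold difference (log2 1.51, SE 0.12, limma adjusted p = 2.6e-04), and the call held under each alternative run. Mrpl36, the relative of the small bacterial protein L36, measured 1421, 1359 and 1516 on the TRAP arrays and 658, 511 and 630 on the unbound arrays. It was 2.40-fold higher (log2 1.26, SE 0.11, limma adjusted p = 3.8e-04), and these were the 2 large subunit genes past 2-fold as deposited, where 29 of 47 were after centring and 9 after quantile normalisation. Mrpl58, also known as Ict1, is a peptidyl-tRNA hydrolase built into the ribosome that can release stalled chains. It measured 3385 ± 312 in TRAP RNA and 1715 ± 260 in unbound RNA (SD, n = 3 each), a log2 difference of 0.99. Mrpl43 and Mrpl46, both without a bacterial relative, were higher by 0.93 and 0.88 on the log2 scale. Mrpl46 lies in the central protuberance, the crown of the large subunit. Mrpl43 gave the same value, 2671, on all 3 TRAP arrays, so its within-group spread is not a measure of error there.

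Mrpl51 and Mrpl39 had the brightest large subunit probe sets. Mrpl51 measured 10091, 10136 and 10091 on the TRAP arrays and 6990.2, 5817 and 6260.4 on the unbound arrays, with no overlap (log2 0.67, SE 0.07, limma adjusted p = 8.1e-04). Its other tested probe sets, both under 2% of that brightness, gave -0.0063 and -0.15 and were not called. Mrpl39, which sits near the exit of the nascent chain, read 7908 on each TRAP array and 6145, 5616 and 5940 on the unbound arrays (log2 0.42, SE 0.04, limma adjusted p = 5.6e-04).

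Both large subunit genes that fell have bacterial relatives. Mrpl35 measured 726, 528 and 697 on the TRAP arrays and 1153, 862 and 1052 on the unbound arrays. The groups did not overlap, and the log2 difference was -0.66 (SE 0.17, limma adjusted p = 0.020). The call was lost without unbound replicate 1 (adjusted p = 0.063) or 3 (0.067), and a second probe set, at 85.8% of its brightness, was called higher at 0.32. Mrpl9 measured 1993, 1807 and 1727 against 2383, 2235 and 2575 (log2 -0.38, SE 0.08, limma adjusted p = 0.0090). After centring Mrpl35 was at -0.22 and Mrpl9 at 0.052, neither called. Both kept their call after quantile normalisation and lost it with the mean of a gene's tested probe sets (-0.29, adjusted p = 0.076, and -0.23, adjusted p = 0.090).

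In the small subunit Mrps28, a relative of bacterial protein S1, read 1423 on each TRAP array and 759, 673 and 670 on the unbound arrays. It was 2.03-fold higher (log2 1.02, SE 0.06, limma adjusted p = 7.8e-05). Mrps6 measured 6123, 6977 and 5950 on the TRAP arrays and 3275, 2870 and 3345 on the unbound arrays, a 2.01-fold difference with no overlap (limma adjusted p = 4.3e-04). These were the 2 small subunit genes past 2-fold as deposited, where 13 of 29 were after centring and 5 after quantile normalisation. Mrps16, which has a bacterial relative, was at log2 0.98 (1485 ± 104 against 763 ± 158, SD, n = 3 each). Mrps34, which is specific to mitochondria, was at 0.88. Mrps14 had, with Mrps6, the brightest probe set of the subunit and measured 7895, 6974 and 7291 on the TRAP arrays against 5094, 4484 and 4648 on the unbound arrays (log2 0.64, SE 0.07, limma adjusted p = 9.2e-04).

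Mammals have 3 relatives of bacterial protein S18. Mrps18c and Mrps18b are small subunit proteins, while the product of Mrps18a lies in the large subunit despite its symbol. Mrps18a measured 2115, 1634 and 2361 on the TRAP arrays and 1334, 916 and 1162 on the unbound arrays (log2 0.84, SE 0.20, limma adjusted p = 0.014, or 0.053 without TRAP replicate 1). Mrps18c measured 3290, 3093 and 3127 against 2244, 1872 and 1706 (log2 0.72, SE 0.11). Mrps18b measured 1451, 1345 and 1404 against 1014, 905 and 1030 (log2 0.51, SE 0.06). All 3 were called higher with no overlap between groups. The product of Mrps30 is likewise a large subunit protein, and that of Mrps36 is now known as part of a metabolic enzyme complex. Both were higher, at 0.38 and 0.62. Counted by place, 41 of 49 large and 19 of 26 small subunit genes were higher, with medians of 0.67 and 0.46.

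Mrps2 and Mrps27 were the small subunit genes that fell. Mrps2, which has a bacterial relative, read 2221 on each TRAP array and 2898 on each unbound array (log2 -0.38, SE 0.02, limma adjusted p = 1.1e-04). With identical values in each group, its p rests on a spread borrowed from other genes and is weaker evidence than it states. Mrps27, a pentatricopeptide repeat protein without a bacterial relative, measured 343, 343 and 338 against 439, 446 and 446 (log2 -0.38, SE 0.03, limma adjusted p = 1.6e-04). After centring these were at 0.048 and 0.056 and not called, and after quantile normalisation Mrps27 was not called (-0.12, adjusted p = 0.093). Repeated values were common: 29 of the 76 genes had at least 1 value repeated within a group. In such genes, among them Mrps27, Mrps28 and Mrpl39, the within-group spread is likewise an uncertain measure of error. The same limit holds for repeated values in the other lists below. Between 17.5% and 21.4% of all tested probe sets were identical between any 2 arrays of 1 group, and 0% were between arrays of different groups.

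**Figure D2:**
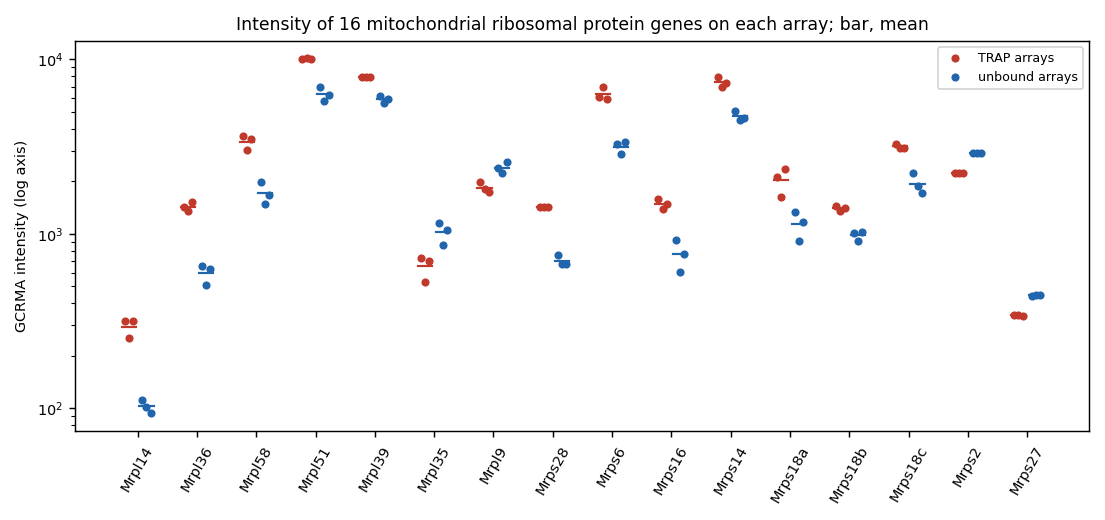
GCRMA intensity (log axis) of 16 genes on each of the 3 TRAP arrays (red) and 3 unbound arrays (blue), with a bar at the mean. In these values as deposited, groups do not overlap in any of the 16, with TRAP below unbound for Mrpl35, Mrpl9, Mrps2 and Mrps27, and several genes show identical values within a group.

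Genes that rose were found in each class and place of the ribosome examined. Of 29 large subunit proteins with a bacterial relative 24 were higher and 2 lower (median 0.65), and of 18 specific to mitochondria 15 were higher and 0 lower (median 0.69). In the small subunit 12 of 16 with a relative were higher and 1 lower (median 0.52), and 7 of 10 without were higher and 1 lower (median 0.45). At the stalk, where translation factors bind, 3 of 4 were higher: Mrpl12, the stalk protein itself (0.70), Mrpl11 at its base (0.69) and Mrpl54 (0.71), while Mrpl10, which anchors the stalk, was not called (0.07, adjusted p = 0.15). In the central protuberance 5 of 6 were higher (median 0.55). Around the polypeptide exit 7 of 8 were higher (median 0.61), and Mrpl45, a protein that helps to tether the ribosome to the inner membrane, was not called. Its TRAP values of 626, 383 and 561 spanned its unbound values of 480, 396 and 526. The 11 genes not called ranged from -0.03 (Mrps9) to 0.38 (Mrpl18), and 10 of them were above 0.

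Probe sets of 1 gene could disagree, and the dimmer ones differed from the brightest. Of 156 member probe sets 133 reached the minimum, and a fit over all 20291 such probe sets called 88 higher and 22 lower, where 21.0% and 46.6% of all probe sets were. Among 33 genes with more than 1 tested probe set, 12 had probe sets called in opposite directions. In Mrpl15, Mrpl17, Mrpl21 and Mrps25 the only probe set called lower reached the minimum in unbound RNA alone, which required a fall. In Mrps5 the only one called higher reached it in TRAP RNA alone, which required a rise. Of the 21 probe sets at or below 10% of their gene's brightest, 6 were higher and 10 lower (median -0.15). The level minimum bears on this count: 6 of the 10 reached it only in unbound RNA, where a fall was required to pass. Of the 14 that reached it in both groups, 5 were higher and 4 lower (median -0.039). Among the 5 was a probe set of Mrpl15 at only 0.077, with identical values in each group. Of 13 above 50% of the brightest, 11 were higher and 1 lower (median 0.51). In all other genes the median was -0.42 at or below 10%, or -0.25 among those that reached the minimum in both groups, and -0.21 above 50%. There 14.8% were called higher and 53.6% lower at or below 10%, beside 28.6% and 47.6% of the members. Among those that reached the minimum in both groups the shares in other genes were 14% and 42.1%. Above 50% of the brightest, 21.2% and 46.5% of probe sets of other genes were called higher and lower. The relation is a description, since probe sets of a gene share transcripts.

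For Mrpl21 the brightest probe set measured 666 ± 58.4 against 378 ± 79.1 (SD, n = 3 each; log2 0.83), while the second, which reached the minimum in unbound RNA alone, read 10.2 on each TRAP array and 68.5 on each unbound array. For Mrpl17 the brightest gave 0.63 and a dim one, at the minimum in unbound RNA alone, -0.83, and for Mrpl57 they gave 0.81 and -0.71. Mrpl15, a gene not called by its brightest probe set (0.05, adjusted p = 0.40), had 4 others higher, the largest at 0.71, and 1 lower (36.7 against 131 on average). The smallest of the 4 was at 0.077, with 73.5 on each TRAP array and 69.7 on each unbound array. With identical values in each group, that call is weak evidence. Mrps14 had both dimmer probe sets lower, at -0.28 and -0.56. Mrps5 was not called by its brightest (log2 0.30, adjusted p = 0.088, or 0.047 with the replicate number as a block), and 2 of its others were lower and 1 higher. Mrpl1, Mrpl19, Mrpl28, Mrpl35, Mrpl48 and Mrps25 also had probe sets called both ways. In 10 of the 12 genes every probe set called lower was dimmer than the brightest one called higher. With the dimmest tested probe set for each gene, 30 large and 21 small subunit genes were called higher and 8 and 6 lower, beside 23.5% and 45.1% of all genes. Of these, 28 large and 20 small subunit genes were also called higher by the brightest. Among the dimmest called lower, those of Mrpl17, Mrpl21, Mrpl35, Mrps9 and Mrps25 reached the minimum in unbound RNA alone, which required a fall. The dimmest of Mrps5, called higher, reached it in TRAP RNA alone.

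**Figure D3:**
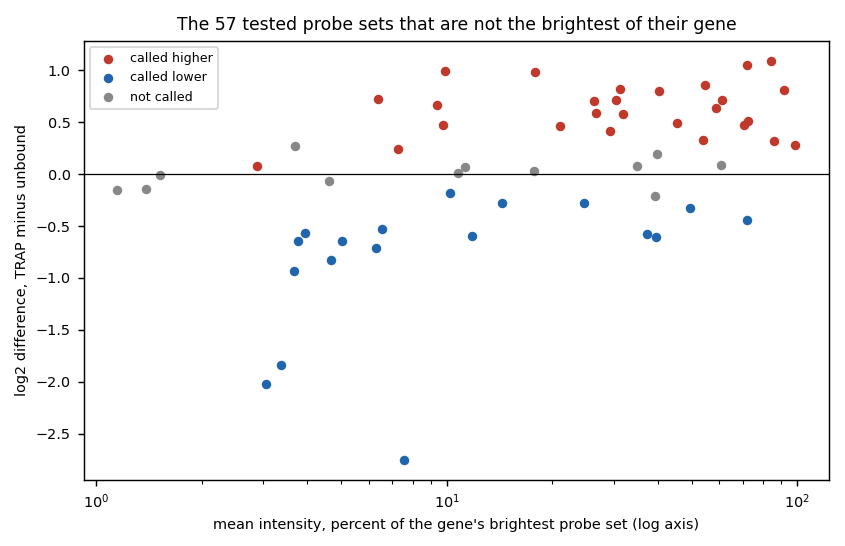
Log2 difference between TRAP and unbound RNA for the 57 tested member probe sets that are not the brightest of their gene, against their mean intensity as a percent of the brightest (log axis). Of the 21 at or below 10%, 10 were called lower and 6 higher, but 6 of the 10 reached the level minimum in unbound RNA alone, and of the 13 above 50%, 11 were called higher and 1 lower. In all other genes 53.6% of such probe sets were called lower and 14.8% higher at or below 10%, and 46.5% and 21.2% above 50%.

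The other genes of mitochondrial translation are given beside the shares of all genes called, 23.3% higher and 45.7% lower as deposited and 47.3% and 22.3% after centring. Differences between lists were not tested. Of 18 tested aminoacyl-tRNA synthetases, which charge the mitochondrial tRNAs, 2 were higher and 10 lower as deposited (median -0.24), but 8 higher and 4 lower after centring. Sars2, for serine, fell from 389 ± 36.2 to 155 on each TRAP array (2.51-fold lower, limma adjusted p = 6.7e-05), and Aars2, for alanine, from 239 ± 6.71 to 138 ± 8.56 (SD, n = 3). Yars2, for tyrosine, was 1.61-fold higher (489 ± 51.8 against 302 ± 4.62, SD, n = 3). Fars2, for phenylalanine, was at 0.50. Without TRAP replicate 2 or 3 another of its probe sets was the brightest and was taken instead. That probe set gave 0.03 and 0.0024 and was not called, so the change lies between probe sets. Of 10 translation factors 2 were higher and 4 lower as deposited (median -0.17), but 5 higher and 0 lower after centring. The elongation factor genes Gfm1 and Gfm2, the second of which acts in ribosome recycling, were lower by log2 differences of -0.51 and -0.53, without a call after centring. The release factor gene Mtrf1l was higher at 0.29, and the recycling factor gene Mrrf at 0.32, a call lost in 5 of the 6 fits that left out 1 array.

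Genes for assembly of the ribosome and modification of its rRNA were mixed, with 8 of 27 higher and 6 lower as deposited (median 0.17), and 20 higher and 2 lower after centring. Malsu1, an assembly factor of the large subunit, measured 956, 835 and 844 on the TRAP arrays and 416, 348 and 357 on the unbound arrays (2.35-fold, limma adjusted p = 2.3e-04). Mpv17l2, also linked to ribosome assembly, was 2.24-fold higher. Oxa1l, the insertase that receives new chains at the inner membrane, was 2.05-fold lower (294 ± 9.53 against 606 ± 74.8, SD, n = 3), and the protease gene Spg7 was lower by a log2 difference of -0.66. Among 4 tested ribosomal proteins under other symbols, Chchd1 was 2.46-fold higher, Gadd45gip1 1.92-fold higher and Ptcd3 lower at -0.32. Gadd45gip1 lost its call in 3 of the 6 fits that left out 1 array (adjusted p = 0.052 in each), and Ptcd3 after centring (0.11) and quantile normalisation (-0.08).

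Transcription and mRNA handling genes of mitochondria were higher in 3 and lower in 8 of 15 as deposited (median -0.24), and higher in 9 and lower in 3 after centring. Slirp, an RNA-binding protein that stabilises mitochondrial mRNAs, was 2.07-fold higher (4406 on each TRAP array against 2189 ± 630, SD, n = 3). Tfam, which packages and transcribes mitochondrial DNA, was called at 0.45 (adjusted p = 0.045), a call lost in 5 of the 6 fits that left out 1 array. With the mean of its probe sets it was at -0.029, and its dimmest probe set was called lower (-0.51, adjusted p = 0.0016). The nuclease gene Pnpt1 was 2.26-fold lower by its brightest probe set, but its dimmest was not called (log2 -1.385, limma adjusted p = 0.24). Mterf1a, a termination factor, was called lower at 27.2 ± 2.29 in TRAP RNA, under the level minimum, against 69.8 ± 0.522 in unbound RNA (SD, n = 3 each). Of 9 regulators of nuclear genes for mitochondria 1 was higher and 5 lower as deposited (median -0.19), and 4 higher and 2 lower after centring. Ppargc1a, a coactivator of mitochondrial biogenesis, measured 2143, 2018 and 1796 on the TRAP arrays against 4319 on each unbound array (2.18-fold lower), and its relative Ppargc1b was 3.07-fold lower. Nrf1 was called higher at 0.28 by its brightest probe set and lower at -1.54 by its dimmest.

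Scaling shifted these lists too. The synthetases were at -0.24, 0.19 and 0.02 as deposited, after centring and after quantile normalisation, beside -0.21, 0.23 and 0.0037 for all genes. With quantile normalisation 4 of them were called higher and 5 lower, and 4 and 1 of the translation factors. Large subunit genes were at 0.67, 1.11 and 0.81 on the same settings. Complex I genes of the respiratory chain (symbol Nduf) had a median of 0.42, with 26 of 42 higher and 3 lower, and genes with symbols of cytosolic ribosomal proteins one of 0.13, with 15 of 45 higher and 5 lower. After centring 40 of 42 complex I genes were higher and 0 lower (median 0.85), and 40 of 45 cytosolic ribosomal protein genes were higher and 1 lower (median 0.57). These 2 lists were chosen after values had been seen.

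**Figure D4:**
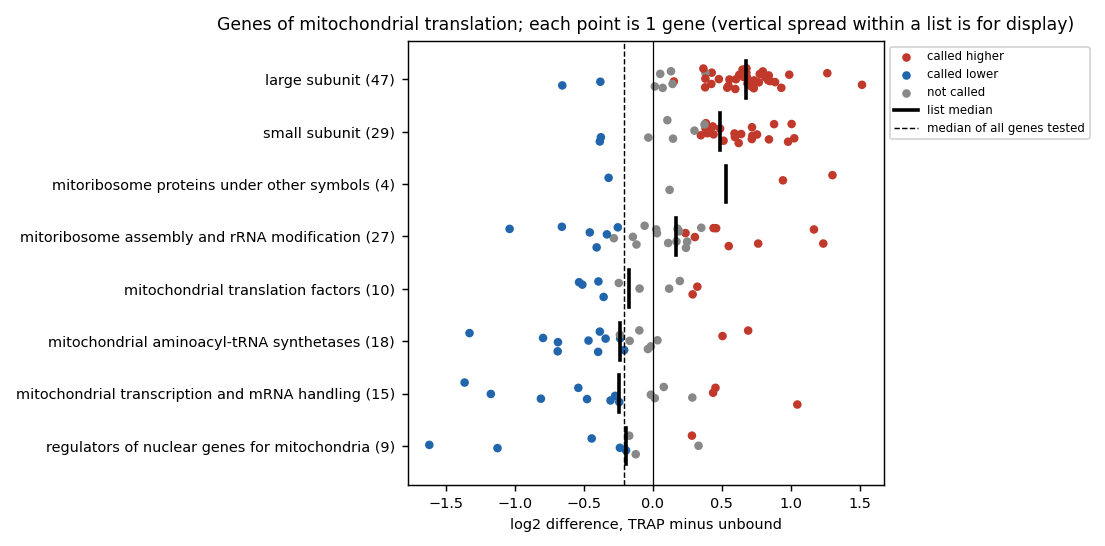
Log2 difference between TRAP and unbound RNA for each tested gene of 8 lists of mitochondrial translation, with the list median as a black bar and the median of all genes as a dashed line. The large and small subunit lists lie mostly above 0 (medians 0.67 and 0.49), while the synthetases (-0.24) and the translation factors (-0.17) lie near the median of all genes. Both shift to above 0 after centring (0.19 and 0.26), as does the median of all genes (0.23).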

How the data were processed

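Gene expression was measured on 6 Affymetrix arrays. Per the labels' protocols, 15 ng of RNA was amplified in 2 cycles, which favours the 3' end of transcripts and makes values depend on where a probe set lies. The deposited values are linear intensities that the authors made with GCRMA, per the submitters' processing notes, but the sources used here do not say whether all arrays were summarised in 1 run. Of 45101 probe sets, 64 are controls, 34945 others have 1 gene symbol in the platform annotation (read as given), and 20291 of these reached a mean of 50 in at least 1 group. A two-sided moderated test of group on log2 intensity was run in limma 3.58.1 (R 4.3.3; lmFit, eBayes) with Benjamini-Hochberg adjustment and a threshold of 0.05, using 1 probe set for each of 12070 genes, that of highest mean. All 76 member genes matched RefSeq (GRCm38.p6) by Entrez ID.

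Named genes are those with the 5 largest called changes in each direction and subunit without overlap, the 2 brightest per subunit, the S18 relatives, members whose probe sets were called in opposite directions, and up to 2 called genes per direction in each other list. Genes named to illustrate places in the ribosome, Mrps30, Mrps36 and the promoters shown were chosen after values were seen. Members and lists were chosen with earlier results of these data known. The fit was tested on simulated data.

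Same-numbered TRAP and unbound samples deviated together from their group means over 12070 genes (correlations 0.50, 0.46 and 0.37 for replicates 1, 2 and 3). The source of this shared deviation was not tested. The main fit did not use the replicate number. Alternatives were other filters, scalings, probe set choices, a floor, a replicate block and leaving out each array. When an array was left out, each gene's brightest probe set was picked anew from the remaining arrays. The number of arrays limits precision.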

Additional observations from a re-analysis of the deposited data

How the results depend on the processing

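Directions of the medians of both subunits were kept under each alternative run. Large subunit genes called higher numbered 39, and 23 of 32 tested on probe sets without repeated values. Those called lower numbered 2, and 0 after centring, 1 with the mean of probe sets, 5 on unmarked probe sets (IDs without x, s or a marks) and 8 with the dimmest probe set, an alternative added after the data were seen. The large subunit median of 0.67 was 1.11 after centring and 0.47 with the dimmest probe set. Small subunit genes called higher numbered 22, and 13 of 20 tested on unmarked probe sets. Those called lower numbered 2, and 0 after centring, 1 after quantile normalisation, 1 without repeated values and 6 with the dimmest probe set. In both subunits some of the dimmest probe sets called lower reached the level minimum in unbound RNA alone, which required a fall. The small subunit median of 0.49 was 0.92 after centring. Without a filter, member probe sets called lower numbered 35 of 156, against 22 of 133. Fewer genes were tested on unmarked probe sets and on those without repeated values. Of all genes, 19.7% were called higher and 39.2% lower without repeated values, and 21.1% and 49.3% on unmarked probe sets. These shares were 22.6% and 46.9% with the mean of probe sets, 23.5% and 45.1% with the dimmest, and 26.4% and 45.9% without a filter. With 1 array left out, large subunit genes called higher numbered 37 to 39 and lower 1 to 2, small subunit genes called higher 13 to 22 and lower 2 to 2, with medians of 0.59 to 0.73 and 0.40 to 0.55. Of all genes, 20.2% to 23.4% were then called higher and 40.2% to 43.2% lower. With the replicate number as a block, 40 large and 24 small subunit genes were higher and 2 and 2 lower, beside 24.8% and 48% of all genes. Among named genes the call then changed for Mrps5 alone (log2 0.30, adjusted p = 0.047).

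Single genes turned sign mostly with the probe set. After centring Mrpl9 was at 0.052, Mrps2 at 0.048, Mrps27 at 0.056 and Ptcd3 at 0.11. With the mean of probe sets Mrps14 was at -0.069, Mrpl1 at -0.032, Mrpl15 at -0.0092, Mrpl17 at -0.10, Mrpl21 at -0.96, Mrps25 at -0.034, Mrps5 at -0.059, Tfam at -0.029 and Nrf1 at -0.63. On unmarked probe sets Mrpl51 was at -0.0063, Mrpl1 at -0.44, Mrpl17 at -0.83, Mrpl21 at -2.75 and Nrf1 at -1.54. Without repeated values Mrpl51 was at -0.15, Mrpl48 at -0.28 and Fars2 at -0.014. With the dimmest probe set Mrpl9 was at 0.27, Mrpl51 at -0.15, Mrps14 at -0.56, Mrpl1 at -0.44, Mrpl17 at -0.83, Mrpl19 at -0.19, Mrpl21 at -2.75, Mrpl28 at -0.33, Mrpl48 at -0.28, Mrpl57 at -0.71, Mrps25 at -0.65, Fars2 at -0.014, Tfam at -0.51 and Nrf1 at -1.54. The cause was not tested. Folds of probe sets below the level minimum in 1 group are imprecise.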
